A study of Mus musculus with 12 samples.

Results

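The slit diaphragm is the junction between the foot processes of neighbouring podocytes, and 9 genes of its complex were described here: Nphs1, Cd2ap, Magi2, Trpc6, Plce1, Ptpro, Myo1e, Nck1 and Fyn. They were chosen by gene symbol, as the nephrin gene and partners of nephrin at this junction. All 9 were listed in the count tables of both ages, among 22290 genes common to the tables, and all 9 passed the filter on low counts. The series compared podocytes of mice with a podocyte-specific Nsd2 knockout (genotype Cre+/Nsd2fl/fl) with those of floxed controls (Cre-/Nsd2fl/fl). Nsd2 encodes a methyltransferase for lysine 36 of histone H3. Diabetic injury had been induced in every mouse, controls included, by the HFD/STZ protocol (a high-fat diet with streptozotocin), so no group was free of it. The labels put all 12 libraries in batch 1. The 4 groups, each of 3 libraries, held primary podocytes of control or knockout mice aged 20 or 28 weeks. Neither the driver of Cre nor the animal behind each library is named in the labels, so p-values measure the spread between libraries, which may be technical.

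Nephrin is a large adhesion protein whose extracellular part spans the gap between foot processes. When its cytoplasmic tail is phosphorylated by the Src-family kinase Fyn, it recruits the adaptor Nck and so reaches the actin cytoskeleton. CD2AP and MAGI2 are scaffolds at the inner face of the junction, TRPC6 is a calcium channel there, PLCE1 is a phospholipase of podocyte development, PTPRO (GLEPP1) is a receptor tyrosine phosphatase of the podocyte's apical membrane and MYO1E is a membrane-binding myosin. Mutations in several of these genes, NPHS1 and PLCE1 among them, cause nephrotic syndrome in people.

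The libraries held 31405349 to 38989180 counts, and 0 reads of a gene in a library allowed, at 3 counts, a level of up to 0.0769 to 0.0955 counts-per-million (CPM). Such limits cover counting error only. Levels are given as TMM-normalised CPM (± is the SD, n = 3), and differences as the log2 ratio of knockout to control with its standard error (SE). Nsd2 itself was lower in all 6 knockouts than in the controls of the same age (log2 -0.88, SE 0.21, edgeR adjusted p = 0.0402 at 20 weeks, and log2 -1.11, SE 0.13, adjusted p = 0.00431 at 28 weeks). Control libraries 2 and 3 at 28 weeks were closer to each other than any other pair within a group, with a biological coefficient of variation of 0.0471 against 0.219 to 0.414 in the other 11 pairs. The calls of the 9 genes at 28 weeks, and the counts of called genes in the further lists, are therefore also given with their counts summed to 1 library. The podocyte markers Wt1, Podxl and Synpo were detected in all 12 libraries, as were all 16 podocyte markers of a fixed list. The libraries also held markers of other cells, and those sums are given beside the results they move with. In such bulk samples fewer cells of a type and less RNA per cell cannot be told apart.

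The 4 genes that passed the test at either age are Nphs1 on chromosome 7 (30458315 to 30487223, plus strand), Cd2ap on chromosome 17 (42792951 to 42876665, minus strand), Plce1 on chromosome 19 (38481109 to 38785030, plus strand) and Ptpro on chromosome 6 (137252319 to 137463233, plus strand), in GRCm38 with GENCODE M21 annotation. An antisense gene, Nphs1os, shares 597 of the 6620 exon bases of Nphs1, and the processed pseudogene Rps12-ps4 on the same opposite strand shares 183. How the counting treated strand is not stated in the labels, so reads of Nphs1 and these genes over the shared bases cannot be told apart. Magi2 shares 203 exon bases with Gm29254 on its own strand, and the other 7 genes share none with another annotated gene. Since these 4 genes moved in different directions, the 250 bases before their RefSeq start sites (GRCm38.p6) are shown, read 5′ to 3′ on the strand of the gene. They are chr7:30459808-30460057 for Nphs1, chr17:42876425-42876674 for Cd2ap, chr19:38523947-38524196 for Plce1 and chr6:137252049-137252298 for Ptpro. The windows of Nphs1 and Plce1 lie wholly inside the GENCODE spans given above, and that of Cd2ap mostly inside. For these genes the RefSeq start site is therefore not the most upstream annotated one, and the window describes that site only. Capitals mark matches to GNGTGGGNG on either strand, letters like those bound by the podocyte factor WT1 and by EGR factors.
Nphs1: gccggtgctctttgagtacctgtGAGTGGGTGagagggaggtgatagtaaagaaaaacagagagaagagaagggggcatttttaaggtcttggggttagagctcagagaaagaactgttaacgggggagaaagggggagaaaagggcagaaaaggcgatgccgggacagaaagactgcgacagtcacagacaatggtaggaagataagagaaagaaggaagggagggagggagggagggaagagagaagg
Cd2ap: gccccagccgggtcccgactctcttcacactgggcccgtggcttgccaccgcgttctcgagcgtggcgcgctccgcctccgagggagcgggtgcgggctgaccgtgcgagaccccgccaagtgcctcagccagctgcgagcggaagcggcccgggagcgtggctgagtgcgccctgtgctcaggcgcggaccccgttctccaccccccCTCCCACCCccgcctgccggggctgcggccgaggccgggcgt
Plce1: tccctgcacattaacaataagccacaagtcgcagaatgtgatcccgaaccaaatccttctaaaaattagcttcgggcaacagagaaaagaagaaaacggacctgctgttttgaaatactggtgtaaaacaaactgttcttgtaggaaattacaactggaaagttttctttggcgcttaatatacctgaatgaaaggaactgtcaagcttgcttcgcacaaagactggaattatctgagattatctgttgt
Ptpro: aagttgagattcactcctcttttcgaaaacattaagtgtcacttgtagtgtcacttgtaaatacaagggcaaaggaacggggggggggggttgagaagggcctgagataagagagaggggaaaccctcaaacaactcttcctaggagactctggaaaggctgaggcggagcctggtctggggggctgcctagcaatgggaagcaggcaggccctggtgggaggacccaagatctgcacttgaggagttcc

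Of these windows, Nphs1 held 1 match, the letters GAGTGGGTG at position -227 from the start site, and Cd2ap held 1, CTCCCACCC at -42, which is the motif on the other strand. Plce1 and Ptpro held none. The motif was found in 12.7% of 32851 promoter windows of this length, and Magi2 held 1 in 1 of its 2 windows. The windows also differed in base composition. That of Cd2ap had 31 CG pairs and 76.4% G or C, as in a CpG island, against 6 CG pairs and 52.4% as the medians of all windows. Plce1 had 6 CG pairs and 38.8% G or C, Nphs1 had 5 and 50.8%, and Ptpro had 3 and 53.6%. RefSeq gave 11 windows for the 9 genes, and GC boxes (GGGCGG, 32.7% of all windows) were found in 1 window each of Magi2, Nck1 and Fyn. The TEAD-type letters GGAATG (12.6% of all windows) were found in 1 window each of Magi2 and Nck1. The TATA letters TATAAA (12.4%) were found in none of the 11. A match of letters is a description of the window and shows no binding.

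The 9 genes differed widely in level. On the authors' FPKM scale, which divides by gene length, Cd2ap was highest in controls at 20 weeks (72.4 ± 12.1 FPKM, n = 3), followed by Myo1e (22.5 ± 6.97), Nck1 (10.8 ± 1.03) and Fyn (5.59 ± 0.636). Ptpro (3.94 ± 1.61 FPKM) and Plce1 (3.89 ± 1.42) came next by mean. The ranges of Fyn, Ptpro and Plce1 overlapped, but within each of the 3 control libraries Fyn was above both others. Ptpro was above Plce1 in controls 1 and 2 and below it in control 3. Magi2 lay at 1.12 ± 0.534 FPKM, Nphs1 at 0.788 ± 0.54 and Trpc6 at 0.211 ± 0.0866, and the range of each overlapped its neighbour in this order. Within libraries, Magi2 was above Nphs1 in all 3 controls, and Nphs1 was above Trpc6 in controls 1 and 2 only. Nephrin, which defines the slit diaphragm, was thus among the least abundant transcripts of its own complex in these libraries. Trpc6 had 123, 111, 115 and 76 reads in all over the 3 libraries of controls at 20 and 28 weeks and of knockouts at 20 and 28 weeks, and little could be read from so few. In knockouts at 20 weeks Cd2ap (34.4 ± 12.2 FPKM) no longer stood above Myo1e (34.3 ± 6.19), and the libraries of these 2 genes overlapped in knockouts at 28 weeks as well.

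**Figure D1:**
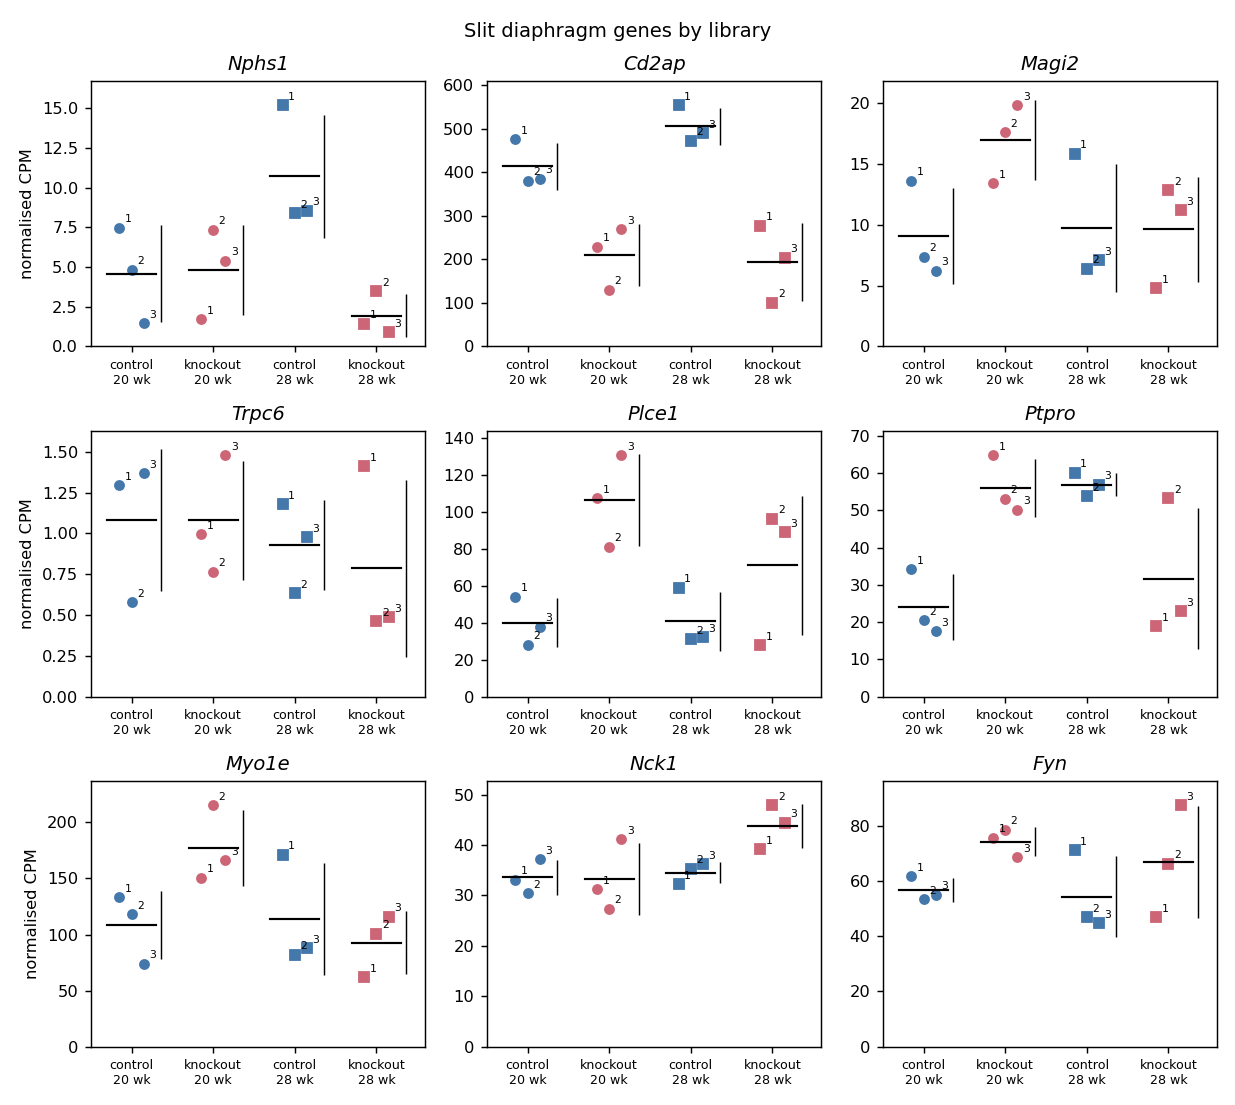
Normalised counts-per-million of the 9 slit diaphragm genes in each of the 12 libraries, with the replicate number beside each point, the mean as a horizontal line and 1 SD to each side as a vertical line. Cd2ap in all 6 knockouts lay below the controls of the same age, and Nphs1 was lower in every knockout than in any control at 28 weeks.

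The first comparison asks how the knockout altered these genes at 20 weeks. Plce1 and Ptpro rose in the knockouts, to 2.66 and 2.33 times the control level, and the other 7 genes did not pass. Among all 14853 genes tested at this age 9.92% were called (4.79% upward and 5.13% downward), and 25% had an unadjusted p below 0.05. Of the 9 genes 2 were called, both upward, and 6 had an unadjusted p below 0.05 (edgeR). Whether the 9 genes differ from the table as a whole was not tested. The median log2 fold change was 0.39 over the 9 genes and 0.01 over all genes. The groups did not overlap in 5 of the 9 genes, 4 higher and 1 lower in knockouts, against 32.2% of all genes tested.

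Plce1, the phospholipase C epsilon gene, was at 54.1, 28.0 and 37.9 CPM in control libraries 1 to 3 and at 107, 81.2 and 131 CPM in knockouts 1 to 3 at 20 weeks. Each knockout library lay above every control, and the log2 fold change was 1.41 (SE 0.28, edgeR adjusted p = 0.0204, n = 3 per group). Ptpro, the phosphatase gene, was at 34.2, 20.5 and 17.5 CPM in these controls and at 64.8, 53.1 and 50.2 CPM in the knockouts. Again no knockout overlapped a control, with a log2 fold change of 1.22 (SE 0.27, adjusted p = 0.0285). The call of Plce1 ended without control 2 (1.22, adjusted p = 0.0632), control 3 (1.37, 0.0534) or knockout 3 (1.26, 0.0736) and also when all 12 libraries were fitted together (1.38, 0.0733). The call of Ptpro ended without control 2 (1.12, 0.11), control 3 (1.03, 0.0696), knockout 2 (1.26, 0.0698) or knockout 3 (1.31, 0.0718), when all 12 libraries were fitted together (1.18, 0.0657) and when 1 CPM was required in 3 libraries (1.15, 0.0523).

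Among the scaffolds at 20 weeks, Cd2ap was at 476, 380 and 385 CPM in controls 1 to 3 and at 229, 130 and 269 CPM in knockouts. All 3 knockouts lay below all controls, at 0.506 times their level, but the gene narrowly missed the threshold (log2 -0.98, SE 0.27, edgeR adjusted p = 0.0572). It passed with DESeq2 (-0.98, adjusted p = 0.00949), without the low count filter (-0.95, 0.0309) and on FPKM values with limma (-1.13, 0.0338). Magi2, the other scaffold, had control values of 13.6, 7.38 and 6.22 CPM, while its knockout values were 13.4, 17.6 and 19.8 CPM. Control 1 and knockout 1 overlapped, and the gene did not pass (log2 0.90, SE 0.33, adjusted p = 0.13).

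Nphs1 did not separate the genotypes at 20 weeks. The controls were at 7.49, 4.85 and 1.45 CPM and the knockouts at 1.72, 7.35 and 5.40 CPM, a spread of several fold within each group. The log2 fold change of 0.07 had a 95% interval from -1.44 to 1.57 (edgeR adjusted p = 0.968), so changes of more than a doubling in either direction were compatible with these libraries. Without knockout 1 the log2 fold change of Nphs1 was 0.48 (edgeR adjusted p = 0.642), and without knockout 2 it was -0.36 (0.827). Of the remaining genes, the myosin gene Myo1e had log2 0.71 (SE 0.25, adjusted p = 0.12), with knockouts between 151 and 215 CPM and controls between 74.2 and 133 CPM. The kinase gene Fyn had log2 0.39 (SE 0.15, adjusted p = 0.16), with knockouts between 68.5 and 78.5 CPM and controls between 53.3 and 61.7 CPM. In both genes the groups did not overlap, yet neither passed. The adaptor gene Nck1 had log2 -0.02 with a 95% interval from -0.47 to 0.44, and the channel gene Trpc6 log2 0.00 with an interval from -1.06 to 1.06, the latter at about 1 CPM in both groups (1.08 ± 0.437 in controls).

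Markers of several cell types moved with genotype in these same libraries at 20 weeks. The summed level of the 16 podocyte markers was 1895 to 2894 CPM in controls and 3954 to 5218 CPM in knockouts. Of the 16, 7 rose, 1 fell and 8 did not pass, where 4.79% of all genes rose and 5.13% fell (the 8 calls were 4 or fewer without control 2, control 3, knockout 2 or knockout 3). The 9 parietal epithelial markers summed to 2596 to 6058 CPM in controls, mostly from Krt7, Krt8, Krt18 and Krt19. They summed to 1872 CPM in knockout 1 and to 543 and 509 CPM in knockouts 2 and 3. Of these 9, 5 fell and 4 did not pass, among them Pax8 (log2 0.30) and Cldn1 (-0.07). The 12 tubule markers summed to 1108 to 1215 CPM in controls, 650.3 CPM in knockout 1 and 75.0 and 79.3 CPM in knockouts 2 and 3. Of 8 tubule markers tested 3 fell and 5 did not pass. Slc34a1, Umod, Slc12a1, Slc12a3 and Aqp2 stayed below 1 CPM in every library. The 11 mesangial and smooth muscle markers summed to 4267 to 4812 CPM in controls and 9656 to 13572 CPM in knockouts, and the contractile genes Tagln and Acta2 made up most of each sum. Endothelial markers (66.9 to 79.5 CPM in controls, 71.3 to 116 CPM in knockouts) overlapped between genotypes, as did leukocyte markers (72.3 to 367 and 249 to 436 CPM). No podocyte, parietal, mesangial or endothelial marker was at 0 in any library, whereas 4 of the 12 tubule markers were at 0 in knockouts 2 and 3, 2 in knockout 1 and 1 in controls 2 and 3. The part of cell composition in the values of the 9 genes was not tested.

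The second comparison asks the same at 28 weeks. Here Nphs1 and Cd2ap fell in the knockouts, to 0.182 and 0.383 times the control level, and the other 7 genes, Plce1 and Ptpro among them, did not pass. Of all 15011 genes tested at 28 weeks 21.2% were called (9.33% upward and 11.9% downward), and 34.8% had an unadjusted p below 0.05. Of the 9 genes 2 were called, both downward, and 3 had an unadjusted p below 0.05 (edgeR). In either direction 2 of 9 is close to the table as a whole. The median log2 fold change was -0.24 over the 9 genes and 0.07 over all genes. The groups did not overlap in 4 of the 9 genes, 3 lower and 1 higher in knockouts, against 42.2% of all genes tested (22.8% with knockouts lower).

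Nphs1 was at 15.2, 8.39 and 8.56 CPM in controls 1 to 3 at 28 weeks and at 1.44, 3.49 and 0.914 CPM in knockouts 1 to 3. The highest knockout library had less than the lowest control, and the group sums were 1279 reads in controls and 184 in knockouts. The log2 fold change was -2.46 (SE 0.55, edgeR adjusted p = 0.024, n = 3 per group), the largest of the 9 genes in size at either age. Cd2ap was at 554, 472 and 490 CPM in controls and at 277, 100.1 and 204 CPM in knockouts, again without overlap (log2 -1.38, SE 0.35, adjusted p = 0.0368). Both calls ended when controls 2 and 3 were summed to 1 library (Nphs1 -2.61, adjusted p = 0.0617; Cd2ap -1.42, 0.0951). The call of Nphs1 also ended without control 1 (-2.12, 0.0686), control 2 (-2.61, 0.0601) or control 3 (-2.60, 0.063), and without knockout 2 its value was -3.20 (0.0125). The call of Cd2ap ended without control 1 (-1.32, 0.0953), control 2 (-1.43, 0.0927), control 3 (-1.41, 0.0987) or knockout 3 (-1.47, 0.0782). In the model of 12 libraries both genes were called at 28 weeks (Nphs1 -2.49, adjusted p = 0.0296; Cd2ap -1.41, 0.0175).

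**Figure D2:**
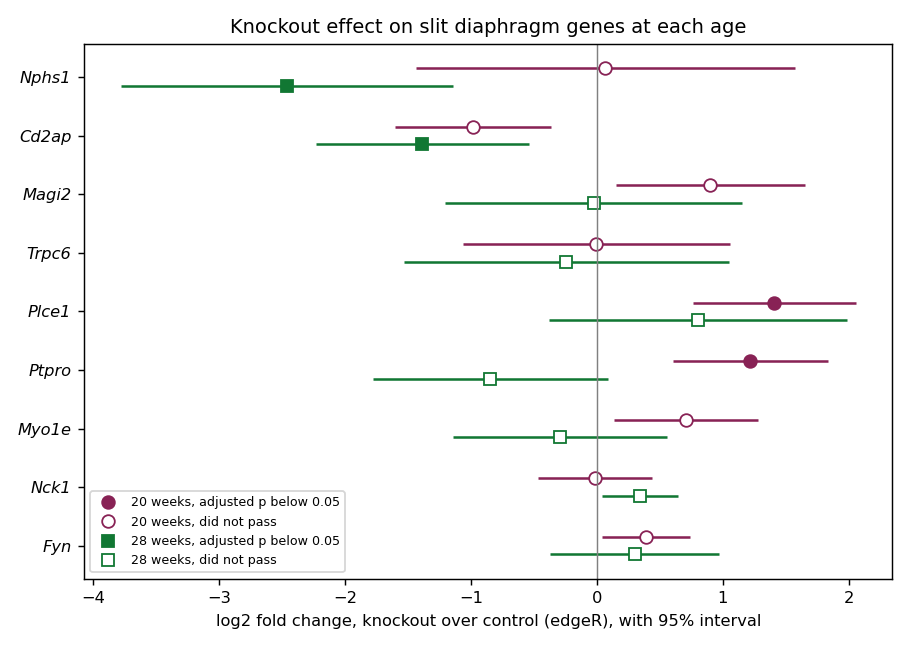
Log2 fold change of knockout over control for each of the 9 genes at 20 weeks (circles) and 28 weeks (squares), with 95% intervals from the edgeR fit; filled symbols have an adjusted p below 0.05. Plce1 and Ptpro are filled on the right at 20 weeks, and Nphs1 and Cd2ap are filled on the left at 28 weeks.

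The knockout libraries at 28 weeks differed among themselves in the genes that did not pass. Ptpro was at 60.1, 53.7 and 56.9 CPM in controls, a narrow range, and at 18.8, 53.3 and 22.9 CPM in knockouts 1 to 3. Knockout 2 lay just below the controls and the other 2 knockouts were far below them (log2 -0.85, SE 0.39, edgeR adjusted p = 0.179). Without knockout 2 the gene was called (-1.46, adjusted p = 0.0099). Leaving out knockout 1 (-0.61, 0.26) or knockout 3 (-0.70, 0.318) gave no call. Plce1 was at 59.0, 31.2 and 32.0 CPM in controls and at 27.9, 96.3 and 88.9 CPM in knockouts. Here knockout 1 was the library that stood apart, below every control, and without it Plce1 was called upward (log2 1.18, adjusted p = 0.0359, against 0.80 and 0.309 with all libraries). Plce1 was not called without knockout 2 (0.53, 0.617) or knockout 3 (0.57, 0.518).

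Nck1 had log2 0.34 at 28 weeks (SE 0.13, edgeR adjusted p = 0.106), its control libraries being at 32.2, 35.3 and 36.1 CPM and its knockout libraries at 39.2, 47.8 and 44.4 CPM. Its knockouts lay above its controls with no overlap, by 1.27 times, but it did not pass. Magi2 had control values of 15.8, 6.39 and 7.08 CPM against knockout values of 4.77, 12.9 and 11.2 CPM (log2 -0.02, 95% interval -1.20 to 1.16). The ranges of these groups overlapped widely. Myo1e (log2 -0.29, interval -1.15 to 0.56), Fyn (0.30, interval -0.37 to 0.97) and Trpc6 (-0.24, interval -1.53 to 1.05) overlapped between genotypes as well.

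Knockout 1 at 28 weeks also stood apart in the marker sums. Its podocyte markers summed to 1433 CPM, against 3795 and 3193 CPM in knockouts 2 and 3 and 2046 to 4206 CPM in controls. Its parietal markers summed to 6981 CPM, against 275 and 892 CPM in the other knockouts, but the keratin gene Krt8 alone made up 5545 CPM of that. The other 8 parietal markers summed to 1436 CPM there, to 245 and 696 CPM in knockouts 2 and 3 and to 3317 to 3934 CPM in controls, so without Krt8 all 3 knockouts lay below the controls. Its tubule markers summed to 947 CPM, against 36.5 and 201 CPM. Parietal markers in the controls summed to 3428 to 6310 CPM and tubule markers, of which 10 were listed at this age, to 1872 to 1935 CPM. Mesangial and smooth muscle markers were at 2875 to 3179 CPM in controls and 6970 to 15681 CPM in knockouts, while endothelial markers overlapped (93.8 to 99.2 and 45.0 to 139 CPM). Tagln and Acta2 made up most of each mesangial and smooth muscle sum, with 4128.5 and 2354 CPM of the 6970 CPM in knockout 1. In that library Pdgfrb, Myh11, Itga8, Cspg4 and Pdgfra lay below every control, while Cnn1, Rgs5 and Des lay above. Leukocyte markers summed to 75.4 to 93.0 CPM in controls and 611 to 837 CPM in knockouts, of which the lysozyme gene Lyz2 alone made up 505 to 785 CPM in knockouts. The other 10 leukocyte markers summed to 27.0 to 42.5 CPM in controls and 51.4 to 115 CPM in knockouts. Of the 9 leukocyte markers tested 3 rose, where 9.33% of all genes did, and 2 were called with controls 2 and 3 summed. Of the 16 podocyte markers 0 rose, 2 fell and 14 did not pass, where 9.33% of all genes rose and 11.9% fell, and 2 were called with controls 2 and 3 summed. Without knockout 1 the log2 fold change of Nphs1 was -2.31 (edgeR adjusted p = 0.0488) and that of Cd2ap -1.73 (0.0221). The part of cell composition in these values was not tested.

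**Figure D3:**
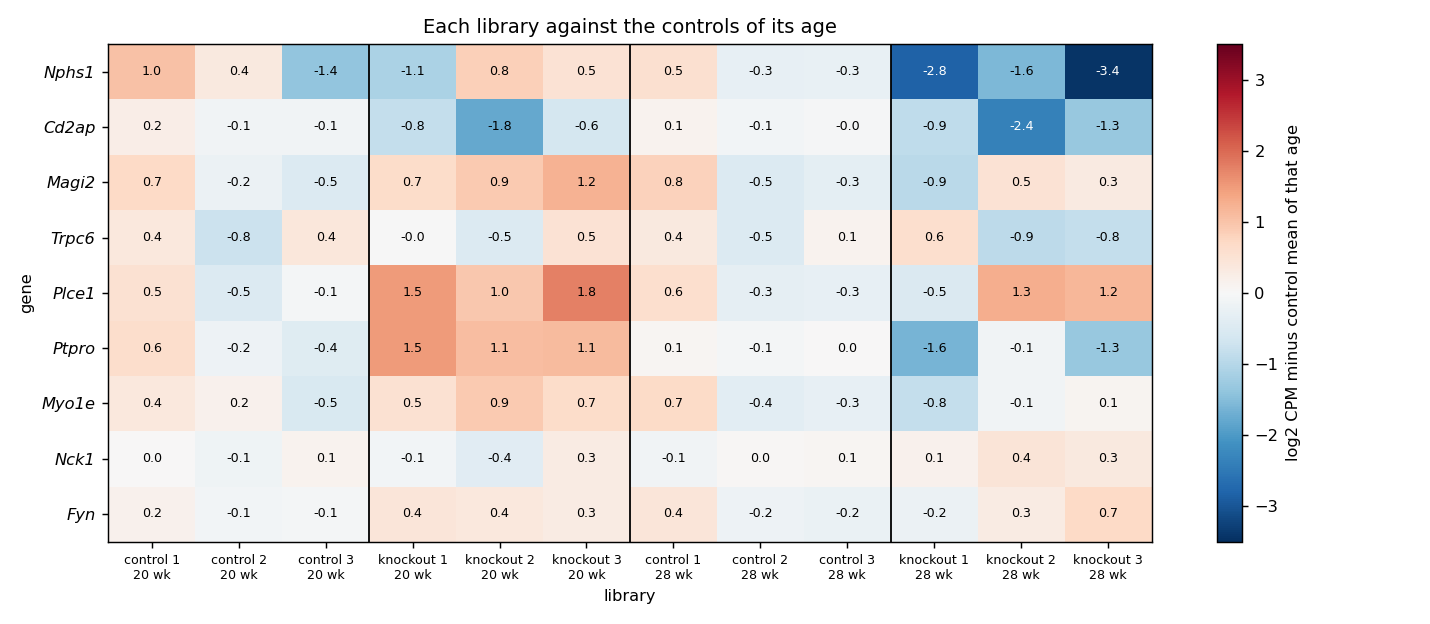
Log2 CPM of each gene in each library minus the mean of the 3 controls of the same age, in red where higher and in blue where lower. Plce1 and Ptpro are red in all 3 knockouts at 20 weeks, Ptpro is blue in all 3 knockouts at 28 weeks, and Cd2ap is blue in all 6 knockouts.

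Setting each gene against the podocyte markers of its own library gave a further description of these differences. The quantity is the log2 CPM of the gene minus the mean log2 CPM of the 16 markers, compared by an exact permutation test, two-sided, whose smallest p with 3 against 3 libraries is 0.1. On this scale the rise of Plce1 at 20 weeks was 0.68 and the difference at 28 weeks 0.84, with no overlap at either age (exact p = 0.1 in both, n = 3 per group). Nphs1 was lower by -2.42 in knockouts at 28 weeks, with no overlap (exact p = 0.1), and by -0.63 at 20 weeks, with overlap (exact p = 0.5). Cd2ap was lower by -1.79 at 20 weeks with no overlap and by -1.34 at 28 weeks with overlap (exact p = 0.1 and 0.2). Ptpro differed by 0.52 at 20 weeks with overlap (exact p = 0.2) and by -0.83 at 28 weeks without (exact p = 0.1). Myo1e, whose own level was higher in each knockout at 20 weeks, was level with the markers there (-0.02, exact p = 1). Nck1 was lower by -0.78 relative to the markers at 20 weeks without overlap (exact p = 0.1), although its own CPM did not separate the groups. The marker mean itself was higher in knockouts at 20 weeks (6.39 to 6.72 log2 CPM) than in controls (5.54 to 6.18), and it enters every difference at that age. At 28 weeks it overlapped between genotypes. This scale describes proportions among transcripts and not amounts per cell.

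**Figure D4:**
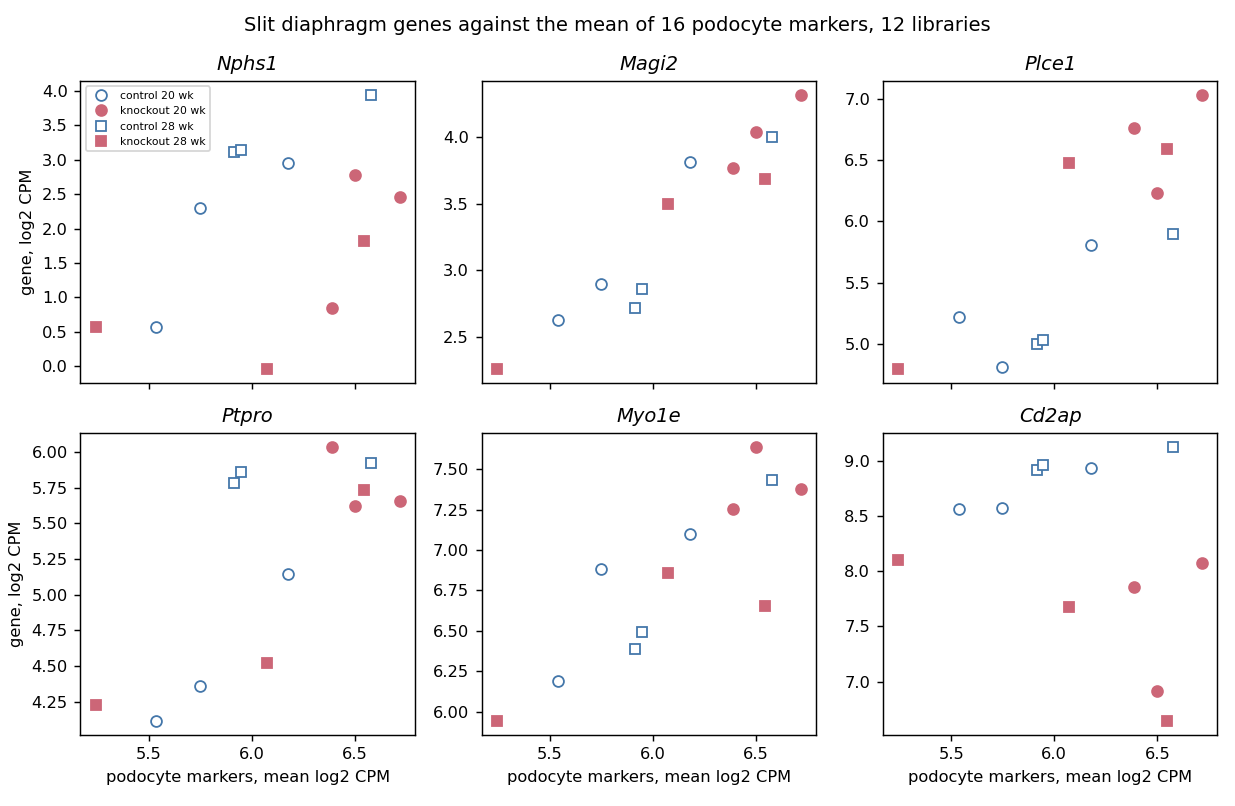
Log2 CPM of 6 of the genes (vertical axis) against the mean log2 CPM of 16 podocyte markers (horizontal axis) in the 12 libraries; open symbols are controls, filled symbols are knockouts, circles 20 weeks and squares 28 weeks. Magi2 follows the markers across all 4 groups, while for Cd2ap all 6 knockouts lie below all 6 controls and for Nphs1 the 3 knockouts at 28 weeks lie below the 3 controls of that age.

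Within groups, several of the 9 genes varied together with the podocyte markers. After the group mean was taken from each library, Pearson's r with the marker mean over 12 libraries was 0.96 for Magi2, 0.89 for Plce1, 0.81 for Myo1e, 0.76 for Ptpro, 0.72 for Fyn and 0.61 for Nphs1. Cd2ap went the other way (r = -0.37), as did Trpc6 (-0.30), and Nck1 was at 0.27. With the mean of 19 parietal and tubule markers r was 0.70 for Cd2ap and between -0.70 and -0.26 for the other genes except Trpc6 (0.44). Among the genes themselves the closest pairs were Magi2 with Myo1e (r = 0.90), Magi2 with Plce1 (0.88), Myo1e with Fyn (0.83) and Plce1 with Fyn (0.81). The most opposed pair was Cd2ap with Ptpro (-0.42). These are descriptions over 12 libraries, 3 in each group. All genes of a library share its preparation, depth and cell mixture, and the marker sums given above differed between libraries of a group. The part of cell composition in these correlations was not tested.

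The genes outside the complex whose deviations were most like those of each member, of 13805 named genes searched, were Prox2 for Nphs1 (r = 0.99), Sdad1 for Cd2ap (0.98), Otud7b for Magi2 (0.99), Terb1 for Trpc6 (0.93), Nfia for Plce1 (0.98), Ntrk2 for Ptpro (0.93), Samd14 for Myo1e (0.99), Ctdspl2 for Nck1 (0.98) and Mical2 for Fyn (0.99). With 12 libraries and so many genes searched, values of this size describe the best match and nothing more.

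Whether the knockout effect itself differed between 20 and 28 weeks was tested in a model of all 12 libraries. No gene of the 15662 tested passed in edgeR (0%, with 1428 or 9.12% at an unadjusted p below 0.05), whereas DESeq2 called 25. In this contrast 8 of the 9 genes had negative values, meaning a knockout effect that was lower at 28 than at 20 weeks. The median change was -0.60 over the 9 genes and 0.05 over all genes. Over the 16 podocyte markers it was -0.90, so a shift in this direction was not particular to the 9 genes. With each age fitted alone, Ptpro had log2 1.22 at 20 weeks and -0.85 at 28 weeks, and the latter did not pass (edgeR adjusted p = 0.179). In the model of 12 libraries the change of Ptpro was -2.05 (SE 0.52, 95% interval -3.20 to -0.90, edgeR adjusted p = 0.538). DESeq2 put the same change at -2.06 with an adjusted p of 0.0498. For Nphs1 the change was -2.48 (SE 0.95, interval -4.58 to -0.39, edgeR adjusted p = 0.538). For Cd2ap the change was -0.41 with an interval from -1.49 to 0.68, and for Plce1 -0.60 with an interval from -1.97 to 0.77, so neither gene's knockout effect was shown to differ between the ages.

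Age coincides with the deposited table, so handling that differed between the tables would be part of any change with age. In controls the largest differences of 28 against 20 weeks were those of Ptpro (log2 1.25, SE 0.37, interval 0.43 to 2.07, edgeR adjusted p = 0.999938) and Nphs1 (1.22, SE 0.67, interval -0.25 to 2.69). In CPM normalised within each age, Ptpro in controls went from 24.1 ± 8.9 to 56.9 ± 3.2 CPM and Nphs1 from 4.6 ± 3.03 to 10.7 ± 3.89 CPM. The log2 differences with age come from the joint model of both ages. In knockouts the signs were opposite: Ptpro went from 56.0 ± 7.71 to 31.7 ± 18.8 CPM (-0.80, SE 0.37, interval -1.61 to 0.01) and Nphs1 from 4.82 ± 2.86 to 1.95 ± 1.36 CPM (-1.26, SE 0.68, interval -2.76 to 0.24). Myo1e in knockouts went from 177 ± 33.6 to 92.8 ± 27.9 CPM (-0.90, SE 0.33, edgeR adjusted p = 0.429). No gene passed in edgeR in either genotype (0% of 15662, with 466 or 2.98% in controls and 1759 or 11.2% in knockouts at an unadjusted p below 0.05), and DESeq2 called 1 gene in controls and 36 in knockouts. These contrasts share libraries with the comparisons of genotypes and are given beside them as values.

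Ordered by mean CPM over the 4 groups, Nphs1 was highest in controls at 28 weeks, above the next group without overlap, and its other 3 groups overlapped in that order. Cd2ap fell into controls (28 then 20 weeks, overlapping) and knockouts (20 then 28 weeks, overlapping), with a gap between the genotypes. Ptpro was highest in controls at 28 weeks and knockouts at 20 weeks, and each of its 4 groups overlapped the next. For Plce1 the order was knockouts at 20 weeks, knockouts at 28 weeks, controls at 28 weeks and controls at 20 weeks, each overlapping the next. Nck1 in knockouts at 28 weeks (43.8 ± 4.35 CPM) stood above controls at 28 weeks, the next group in the order, without overlap, but overlapped knockouts at 20 weeks, the lowest and most spread group. In Magi2, Trpc6, Myo1e and Fyn each group overlapped its neighbour in the order.

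Other genes of the junction and its signalling were taken from fixed lists. At 20 weeks 13 further junction proteins and nephrin partners were tested, of which 3 rose and 0 fell, against 4.79% and 5.13% of all genes. The risen genes were Dag1, which encodes dystroglycan (328 ± 132 to 1027 ± 116 CPM, log2 1.65, SE 0.28, edgeR adjusted p = 0.0112), Kirrel, which encodes the nephrin-related partner NEPH1 (159 ± 35.9 to 293 ± 23.5 CPM, log2 0.88, SE 0.19, adjusted p = 0.0286), and the protocadherin gene Fat1 (log2 0.69, adjusted p = 0.0387). Of 12 tested at 28 weeks, where 9.33% of all genes rose and 11.9% fell, 0 rose and 3 fell, among them Magi1, a relative of Magi2 (31.7 ± 1.58 to 18.6 ± 0.517 CPM, log2 -0.77, SE 0.11, edgeR adjusted p = 0.00707), and Cttn, the actin-binding cortactin (log2 -0.64, adjusted p = 0.0124). The list's median log2 fold change was 0.25 at 20 weeks and -0.26 at 28 weeks. Leaving out single libraries gave 1 to 3 called genes at 20 weeks and 2 to 4 at 28 weeks, and 2 were called at 28 weeks with controls 2 and 3 summed. The count of 3 at 20 weeks went to 1 without control 2, control 3, knockout 2 or knockout 3.

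Polarity genes, which place the junction along the foot process, had 0 risen and 1 fallen of 8 at 20 weeks and 1 risen and 4 fallen of 8 at 28 weeks (median log2 0.03 and -0.81), where 9.92% and 21.2% of all genes were called. At 20 weeks the atypical protein kinase C gene Prkcz fell (log2 -0.97, SE 0.21, edgeR adjusted p = 0.0287), a call that was lost without control 1, control 2, knockout 2 or knockout 3, each of which left 0 called genes in this list. At 28 weeks the fallen genes were Scrib (78.3 ± 9.16 to 38.9 ± 1.21 CPM, log2 -1.01, SE 0.12, adjusted p = 0.00489), Prkci (-0.71, 0.0169), Pard3 (-0.70, 0.0183) and Pard6b (-0.92, 0.0271), while Pard6g rose (0.84, 0.0094). These polarity proteins serve many epithelia, and the parietal and tubule marker sums given above were lower in knockouts 2 and 3 than in controls; the part of that in these values was not tested. The count of 5 at 28 weeks went to 3 without control 1, to 1 without control 2, to 2 without control 3 and to 2 with controls 2 and 3 summed, and was 6 without knockout 1.

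Signalling genes downstream of nephrin (Src-family, PI3-kinase, Crk and Pak genes among them) had 0 called of 19 at 20 weeks, where 9.92% of all genes were called. Pik3r1 (log2 0.92, edgeR adjusted p = 0.0573) and Cblb (0.67, 0.109) had the smallest p. At 28 weeks 1 rose and 4 fell of 19, a share near the 21.2% called among all genes. Akt2, a kinase of the insulin pathway, rose (log2 0.63, adjusted p = 0.0286), and the fallen genes included the adaptor Bcar1 (264 ± 30.8 to 134 ± 12.0 CPM, log2 -0.98, SE 0.14, adjusted p = 0.00646), Src (-0.73, 0.0248) and Pak2 (-0.51, 0.0312). The count of 5 at 28 weeks was 1 without control 1, 2 or 3 or knockout 2, 1 with controls 2 and 3 summed and 3 without knockout 1.

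Genes of calcium entry and calcineurin, the pathway that TRPC6 feeds, had 0 called of 10 at 20 weeks, against 9.92% of all genes. Nfatc2 (log2 -2.13, edgeR adjusted p = 0.0818) and Nfatc4 (0.73, 0.101) were nearest. At 28 weeks the transcription factor genes Nfatc2 (8.68 ± 0.788 to 1.24 ± 0.391 CPM, log2 -2.80, SE 0.29, adjusted p = 0.00351) and Nfatc1 (-1.06, 0.0387) fell and the calcineurin subunit gene Ppp3r1 rose (0.58, 0.0132), so 3 of 10 were called against 21.2% of all genes. The count was 1 without control 2 and with controls 2 and 3 summed. Genes of nephrin traffic had 1 fallen of 10 at 20 weeks, the endophilin gene Sh3gl2 (log2 -2.21, adjusted p = 0.00723), and 0 of 10 at 28 weeks, where Pacsin2 (-0.28, 0.127) and Sh3gl2 (-1.95, 0.142) were nearest. Of all genes 9.92% were called at 20 weeks and 21.2% at 28 weeks. Of 9 genes of the podocyte actin skeleton, 3 rose at 20 weeks (4.79% of all genes did), namely Arhgap24 (1.36, 0.0094), Synpo (1.58, 0.0109) and the actin crosslinker Actn4 (0.72, 0.0444). At 28 weeks Capzb rose (0.56, 0.0311) and Ezr, which encodes ezrin, fell (-1.30, 0.00627), and 7 did not pass, so 2 of 9 were called where 21.2% of all genes were. The count of 3 at 20 weeks was 1 without control 2, and that of 2 at 28 weeks was 1 without any single control, without knockout 2 or 3 and with controls 2 and 3 summed.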

How the data were processed

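RNA sequencing was done on primary podocytes of 4 groups of 3 libraries. The authors deposited raw read counts per gene symbol in 1 table for each age. They also deposited FPKM values, which the values show to be the same counts scaled to 1 length per gene and to the sum of each library. The build was GRCm38 (mm10), per the submitters' processing notes. Aligner, counter, strand setting and annotation are not stated in the labels. The labels' protocols name a Qiagen RNA kit and a SMARTER mRNA-Seq library kit.

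The 2 ages were fitted separately in edgeR 4.0.16 (R 4.3.3) with TMM scaling, filterByExpr and the quasi-likelihood F test. A gene was called when its adjusted p (Benjamini-Hochberg, all tested genes) was below 0.05. Where no tool is named, an adjusted p is edgeR's. Each SE was derived from the log2 fold change and F. The change between ages and the age contrasts came from 1 model of 12 libraries. The script was tested on simulated counts. Alternatives were DESeq2 1.42.0, its size factors, other filters, limma 3.58.1 on log2(FPKM + 0.1), a replicate block, left-out libraries and summed controls 2 and 3 at 28 weeks.

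The genes and lists were chosen with earlier results of these data known. Named were all 9 genes; from each further list up to 3 called genes per direction and age by smallest p (or 2 as values), Pard6b being added after its values were seen and 1 called gene not being reported here; and the closest gene by correlation. The comparison with podocyte markers was added after seeing the data. Promoter sequences are from RefSeq (GRCm38.p6), matched by symbol for all 9 genes.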

Additional observations from a re-analysis of the deposited data

Results flagged for a closer look

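Ptpro was higher than the control mean in 3 of 3 knockout libraries at 20 weeks and lower in 3 of 3 at 28 weeks, so the knockout libraries of the 2 ages lay on opposite sides of their controls. At 28 weeks the difference itself did not pass (edgeR adjusted p = 0.179), knockout 2 lying just below the controls. The change of the Ptpro log2 fold change between the ages was -2.05. Adjusted over all genes it did not pass in edgeR (adjusted p = 0.538), and it was called by DESeq2 (adjusted p = 0.0498). No other gene of the 9 showed this pattern, and outliers were not looked for in groups of 3.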

How the results depend on the processing

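The 9 genes gave 729 values under alternatives; 659 kept direction and side of the threshold, 43 were not called in either fit and changed sign, 21 were no longer called and 6 became called, both without a change of sign. The 2 genes called at 20 weeks were 1 with the filter of 1 CPM and 0 in the model of 12 libraries, and 0 to 2 when single libraries were left out. The 2 called at 28 weeks were 0 with controls 2 and 3 summed, and 0 to 3 when single libraries were left out. Over all genes, the 1473 calls at 20 weeks were 2401 with DESeq2 and 517 to 2023 when single libraries were left out, and the 3183 calls at 28 weeks were 1299 with controls 2 and 3 summed and 1266 to 3374 when single libraries were left out. For the change between ages DESeq2 called 1 of the 9 genes, Ptpro, and 25 of all genes; it called 1 gene with age in controls and 36 in knockouts, where leaving out single libraries gave 0 to 4 in edgeR. The cause of these differences was not tested.

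The labels do not state that replicate numbers pair the samples. After the group mean was taken from each library, same-numbered libraries correlated at -0.196 to 0.304 at 20 weeks and -0.543 to -0.0827 at 28 weeks. With 3 such values per age, from groups of 3 libraries, these cannot decide whether a pairing exists. With the replicate block 2 of the 9 genes and 1164 of all genes were called at 20 weeks, and 0 and 332 at 28 weeks (Nphs1 -2.63, adjusted p = 0.0797; Cd2ap -1.50, 0.0754, edgeR). Depth limits Trpc6 most, with 76 to 123 reads per group.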
